A study of Mus musculus with 9 samples.

Results

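Small nucleolar RNAs (snoRNAs) are short guide RNAs of the nucleolus, and 36 of their genes carried enough reads in neonatal mouse testis to be described. They were chosen by a symbol beginning with Snora or Snord and a number, and by at least 15 counts summed over all 9 libraries. The table lists 107 genes with such symbols among 56691 genes in all. Of the other 71, 10 had 1 to 14 counts and 61 had 0. The 36 comprise 25 box C/D genes (Snord) and 11 box H/ACA genes (Snora). Just inside the threshold were Snord23 with 15 counts, Snord91a with 16, Snord11 with 19 and Snord110 with 22, and just outside it were Snord66 and Snord13 with 11 each, Snord118 with 10 and Snord92 with 9.

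RNA came from whole testes of mice on postnatal day 7, and polyadenylated RNA was captured on oligo(dT) beads. The 9 libraries form 3 groups of 3: double knockout (Gm1142-/- Gm4779-/-), Gm1142 knockout (Gm1142-/-) and wild type (WT). The labels give no strain, sex or litter, nor the kind of allele, and nothing says that replicates came from separate animals, so the p-values reflect the spread among these samples alone and that spread could be technical. The study asks how RNA levels differ from WT after loss of Gm1142 alone or of both genes, and between the mutants.

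Box C/D snoRNAs guide 2′-O-methylation of ribosomal RNA by fibrillarin, and box H/ACA snoRNAs guide pseudouridylation by dyskerin. In mammals most are cut out of introns of host genes, many of which encode ribosomal proteins or translation factors. The excised RNA is trimmed at both ends, packed with its proteins and not polyadenylated. A read on an intronic snoRNA gene in an mRNA library therefore does not show whether it came from the mature snoRNA or from unspliced host RNA.

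To show which class motifs they hold, sequences are given for some of the genes with the most counts, some at the ends of the range of fold changes and Snord23. They are DNA letters of the GENCODE M21 transcripts, matched by gene identifier. Capitals mark, where present, the C box core TGATGA in the first 15 bases and the D box CTGA in the last 15 bases of a C/D gene, or the ACA lying 3 bases from the end of an H/ACA gene.
Snora31: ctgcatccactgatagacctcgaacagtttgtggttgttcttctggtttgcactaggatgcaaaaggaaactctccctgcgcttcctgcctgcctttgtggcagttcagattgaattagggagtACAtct
Snora41: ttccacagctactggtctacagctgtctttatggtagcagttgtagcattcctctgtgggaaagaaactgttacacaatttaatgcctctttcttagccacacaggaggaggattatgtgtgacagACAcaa
Snora69: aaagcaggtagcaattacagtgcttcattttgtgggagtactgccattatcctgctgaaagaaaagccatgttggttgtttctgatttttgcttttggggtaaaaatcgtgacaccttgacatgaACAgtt
Snord72: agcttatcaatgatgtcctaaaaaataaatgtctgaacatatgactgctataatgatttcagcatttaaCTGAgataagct
Snord89: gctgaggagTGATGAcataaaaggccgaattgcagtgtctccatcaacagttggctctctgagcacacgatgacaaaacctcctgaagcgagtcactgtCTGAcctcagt
Snord53: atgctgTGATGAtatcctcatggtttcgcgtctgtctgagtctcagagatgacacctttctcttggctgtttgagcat
Snord123: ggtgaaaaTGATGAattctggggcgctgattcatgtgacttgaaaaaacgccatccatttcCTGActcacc
Snord59a: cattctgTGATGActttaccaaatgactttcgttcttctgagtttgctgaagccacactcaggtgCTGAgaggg
Snord71: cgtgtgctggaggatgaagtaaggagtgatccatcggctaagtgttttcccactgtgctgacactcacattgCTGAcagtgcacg
Snord70: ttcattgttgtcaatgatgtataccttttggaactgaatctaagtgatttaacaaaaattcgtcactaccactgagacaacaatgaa
Snord23: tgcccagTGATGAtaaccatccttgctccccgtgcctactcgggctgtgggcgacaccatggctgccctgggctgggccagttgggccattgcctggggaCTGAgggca

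In GRCm38 Snora31 lies at chr14:75847905-75848034, plus strand, Snora41 at chr1:63179004-63179135, plus strand, Snord53 at chr17:71640879-71640956, plus strand, Snord59a at chr10:128084143-128084216, plus strand, and Snord89 at chr1:39548745-39548854, minus strand. Each lies within the span of its host gene and outside other annotated exons of its strand. Counting was done on mm39, and the coordinates therefore belong to the reference annotation alone. Both C/D motifs were found in 13 of 25 C/D members (52%) and in 0 of 11 H/ACA members. An H box (ANANNA, starting at 35 to 65% of the length) together with the ACA was found in 10 of 11 H/ACA members (90.9%) and in 0 of 25 C/D members. Among all 1507 snoRNA genes of the annotation with a sequence, 19.5% held both C/D motifs and 15.7% both H/ACA motifs, and among 2202 microRNA genes 0% and 0.817% did. The C box letters were found in 14 of 25 C/D members and the D box letters in 21, and Snord70, Snord43 and Snord91a held neither in these windows.

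Every one of the 36 genes lies inside a host gene on the same strand, in 32 hosts. Of these hosts, 11 encode ribosomal proteins and hold 14 members, 17 encode other proteins and hold 18, and 4 are non-coding or carry a transcript type without a coding label and hold 4. Snora31 had the most counts over the 9 libraries, 560, and sits in Tpt1, which encodes translationally controlled tumour protein. Snora41, with 507, sits in Eef1b2, a subunit of translation elongation factor 1. Snord72 (397 counts, in Rpl37), Snord73a (326, in Rps3a1), Snord58b (247, in Rpl17), Snord32a (216, in Rpl13a) and Snord83b (181, in Rpl3) sit in ribosomal protein genes. Snord89 (353) lies in the transcript Gm15832, Snord53 (333) in Wdr43, which encodes a factor of small ribosomal subunit assembly, and Snord123 (322) in the long non-coding RNA Snhg18.

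Hosts with several members showed that genes transcribed together were counted unequally. Rpl13a holds Snord32a, Snord35a and Snord34, which had 216, 103 and 48 counts in all. Rpl3 holds Snord83b and Snord43, with 181 and 45, and Nop58 holds Snord70 and Snord11, with 99 and 19. The Rpl13a genes share a host but differ in sequence.
Snord32a: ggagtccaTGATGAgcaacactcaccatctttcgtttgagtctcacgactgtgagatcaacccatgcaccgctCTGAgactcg
Snord35a: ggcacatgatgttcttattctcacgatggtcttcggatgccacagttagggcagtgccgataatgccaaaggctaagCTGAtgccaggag
Snord34: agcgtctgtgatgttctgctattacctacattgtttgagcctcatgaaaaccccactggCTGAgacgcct

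The genes with 0 counts differed from the members in how they are annotated. An exon of another gene on the same strand overlapped 3 of 36 members (8.33%: Snora15, Snord42b and Snora2b), 2 of 10 genes with 1 to 14 counts (20%) and 49 of 61 genes with 0 counts (80.3%). The 0-count genes included Snord47, Snord78 and Snord80 in Gas5, Snord22 in Snhg1, Snord12 in Zfas1 and Snord95 in Rack1. Their hosts were not silent: Gas5, a host of many C/D snoRNAs, had 377 ± 43.98 CPM in the double knockout, 283 ± 55.4 CPM in the Gm1142 KO-labelled libraries and 446 ± 34.98 CPM in WT (CPM, counts per 1000000 on scaled library sizes, SD, n = 3 each). How a read that falls on 2 overlapping genes was counted is not given in the sources used here, and its part in the counts of 0 was not tested. For a gene counted only from its own reads, 0 of 47156678 counts allows a level of up to 0.0636 CPM, by counting error alone.

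**Figure D1:**
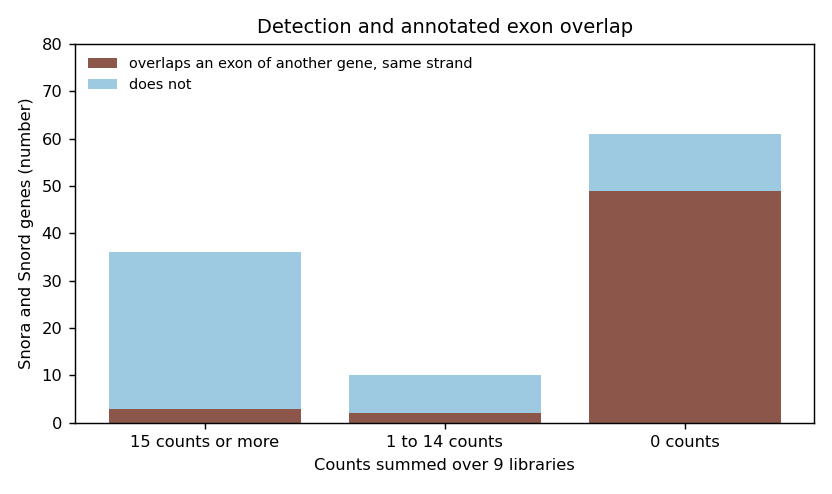
Number of Snora and Snord genes (vertical axis) by counts summed over 9 libraries (horizontal axis), split by annotated overlap with an exon of another gene on the same strand. Overlap is found for 3 of 36 genes with at least 15 counts and for 49 of 61 genes with 0 counts.

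Libraries held 4370124 to 8359594 gene counts in the double knockout, 4597447 to 5243756 in the Gm1142 KO-labelled libraries and 4514237 to 5091624 in WT, of which only 475 to 726 fell on the 36 genes. Gm1142 and Gm4779 had 0 counts in each double knockout library. Gm1142 had 65, 46 and 50 counts in the Gm1142 KO-labelled libraries, against 56, 50 and 41 in WT, so gene counts did not check that label, and directions given for this group are those of libraries known by label alone. Mitochondrial genes took 27.1% to 32.9% of counts in the double knockout, 32.5% to 38.9% in the Gm1142 KO-labelled libraries and 29.4% to 32.7% in WT. Testis markers were present: the summed level of 5 spermatogonial markers was 468 to 596 CPM in the double knockout, 200 to 274 CPM in the Gm1142 KO-labelled libraries and 311 to 360 CPM in WT, and that of 5 Sertoli cell markers was 482 to 537, 570 to 620 and 505 to 542 CPM in the same order. The Sertoli sum does not describe each marker. Between the Gm1142 KO-labelled libraries and WT their log2 fold changes ran from -1.47 to 0.46, with a median of 0.003. Those of 4 tested Leydig cell markers ran from -2.64 to -0.67. In whole tissue, fewer cells of a type and less RNA per cell cannot be told apart, and the part of these markers in the snoRNA values was not tested.

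Summed over the 36 genes, the groups overlapped. The genes had 112, 86.8 and 132 counts per 1000000 gene counts in the double knockout, 116, 124 and 112 in the Gm1142 KO-labelled libraries and 111, 93.3 and 121 in WT. No group stood apart in any of the 3 comparisons. Means differed by 2.01 counts per 1000000 gene counts between double knockout and WT (exact permutation p = 0.9), by 9.04 between the Gm1142 KO-labelled libraries and WT (exact p = 0.4), and by -7.03 between double knockout and the Gm1142 KO-labelled libraries (exact p = 0.8). These tests are two-sided, and 3 libraries against 3 cannot give a p below 0.1. Box C/D genes had 73.1 ± 12.7 counts per 1000000 gene counts in the double knockout, 80.4 ± 4.64 in the Gm1142 KO-labelled libraries and 69.3 ± 10.6 in WT, and box H/ACA genes had 37.2 ± 10.3, 36.99 ± 1.502 and 39.01 ± 3.28 in the same order (SD, n = 3 each). None of the 6 class comparisons had an exact p below 0.2, and over the 18 tests of sums and host ratios the smallest adjusted p was 0.982. Double knockout replicate 2, the deepest library, had the lowest total and the lowest H/ACA value (27.9), while the lowest C/D value was in WT replicate 2 (57.5). With mitochondrial genes left out of the totals, whose share differed between libraries, the difference in means was 26.5 between the Gm1142 KO-labelled libraries and WT (exact permutation p = 0.2) and -24.3 between double knockout and the Gm1142 KO-labelled libraries (exact p = 0.4). With 1 library left out, the difference between the Gm1142 KO-labelled libraries and WT was 1.53 (without WT replicate 2) to 15.1 (without WT replicate 3).

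**Figure D2:**
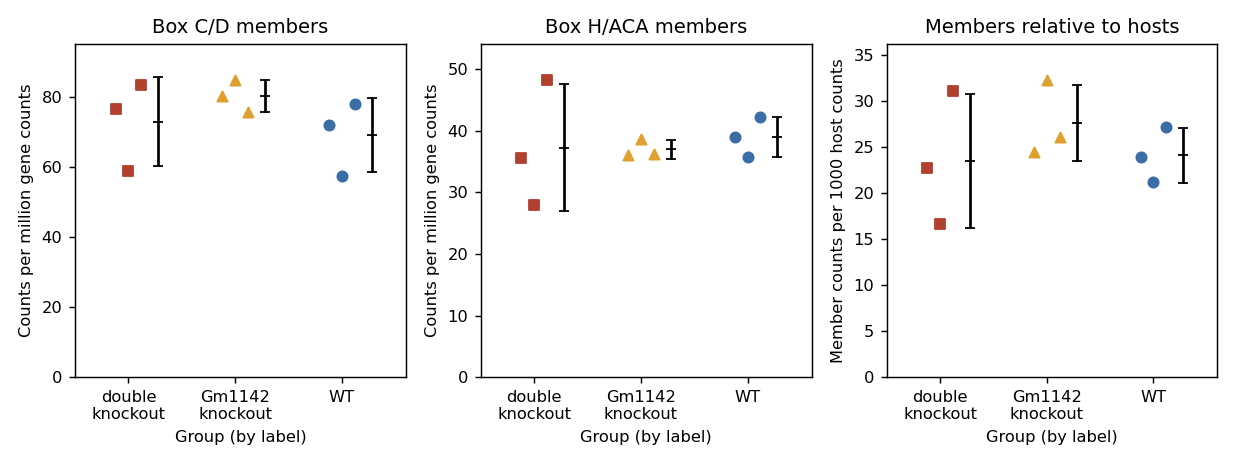
Box C/D and box H/ACA genes in counts per 1000000 gene counts, and member counts per 1000 counts on their host genes (vertical axes), for each library by group (horizontal axis), with the mean and SD of 3 libraries beside the points. The groups overlap in each panel, and the lowest point of the right panel is double knockout replicate 2 at 16.7 per 1000.

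Individual genes were tested where counts allowed. Of the 36, 19 passed the filter on low counts (14 C/D and 5 H/ACA), and 17 did not and are described by their counts. Under edgeR's quasi-likelihood test with Benjamini-Hochberg adjustment over 17251 genes, 0 of the 19 had an adjusted p under 0.05 in any of 3 comparisons, and DESeq2 also called 0. At an unadjusted p under 0.05 there was 1 gene between double knockout and WT (Snord89), 3 between the Gm1142 KO-labelled libraries and WT (Snord59a, Snord53 and Snord58b) and 1 between double knockout and the Gm1142 KO-labelled libraries (Snord53). Snord59a passed the filter on low counts through knockout libraries alone, so its place here is a description. At that unadjusted p stood 1544, 5311 and 5549 of all 17251 tested genes, in the same order of comparisons. By adjusted p, 0.0927%, 18.5% and 19.1% of all tested genes were called. Among the 7018 tested genes within the members' range of mean level, 1.72 to 12.4 CPM, the shares were 0.0997%, 10.1% and 10.5%. The precision was low: the standard errors (SE) of the members' log2 fold changes between the Gm1142 KO-labelled libraries and WT were 0.28 to 0.72, with a median of 0.50.

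Between the Gm1142 KO-labelled libraries and WT, C/D genes made up the upper end of the range. Snord53 had 8.802, 2.48 and 7.02 CPM in the double knockout, 11.7, 11.2 and 11.1 CPM in the Gm1142 KO-labelled libraries and 3.25, 4.73 and 7.97 CPM in WT. Each of the Gm1142 KO-labelled libraries was above each WT and each double knockout library. The log2 fold change was 1.10 between the Gm1142 KO-labelled libraries and WT (SE 0.41, adjusted p = 0.0662 in edgeR) and -0.94 between double knockout and the Gm1142 KO-labelled libraries (SE 0.40, adjusted p = 0.108 in edgeR). Neither passed, although Snord53 was called in the first comparison under 4 alternatives, with adjusted p-values from 0.0283 to 0.249 over all of them, and in the second when double knockout replicate 1 was left out (adjusted p = 0.0495). Without double knockout replicate 2 that second log2 fold change was -0.50 (adjusted p = 0.426 in edgeR), and without replicate 2 of both knockout groups -0.52 (adjusted p = 0.465 in edgeR).

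Snord59a, in an intron of the ATP synthase subunit gene Atp5b, had 1.53, 1.24 and 2.04 CPM in the double knockout, 1.36, 4.09 and 2.98 CPM in the Gm1142 KO-labelled libraries and 1.15, 0.197 and 0.861 CPM in WT. The Gm1142 KO-labelled libraries and the double knockout both lay above WT without overlap. Its log2 fold change was 1.88 between the Gm1142 KO-labelled libraries and WT (SE 0.70, adjusted p = 0.0662 in edgeR) and 1.07 between double knockout and WT (SE 0.72, adjusted p = 0.696 in edgeR). Its host Atp5b had log2 fold changes of -0.03 and 0.11 in those comparisons. WT libraries held only 6, 1 and 4 counts of Snord59a. It passed the filter on low counts through knockout libraries alone, the groups where it was higher. Its fold changes and its place above WT are therefore descriptions and support nothing.

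Snord58b, in Rpl17, had 5.17, 4.06 and 6.79 CPM in the double knockout, 5.24, 8.44 and 7.67 CPM in the Gm1142 KO-labelled libraries and 5.74, 2.76 and 3.01 CPM in WT. The Gm1142 KO-labelled libraries and WT overlapped, with a log2 fold change of 0.87 (SE 0.40, adjusted p = 0.143 in edgeR). A near-identical annotated copy makes its counts uncertain, as for Snora21, Snora2b, Snora30 and Snora41, since the treatment of reads with several matches is not given in the sources used here.

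Snord71, in the clathrin adaptor gene Ap1g1, had 1.34, 2.37 and 1.81 CPM in the double knockout, 3.11, 3.32 and 3.196 CPM in the Gm1142 KO-labelled libraries and 2.87, 1.18 and 1.08 CPM in WT. On this scale its Gm1142 KO-labelled libraries were close together and above every library of both other groups. They held 16, 13 and 15 counts, against 15, 6 and 5 in WT. Their separation from WT replicate 1 therefore rested on library scaling. The log2 fold change against WT was 0.89 (SE 0.56, adjusted p = 0.305 in edgeR). Snord35a, in Rpl13a, had 1.91, 2.03 and 2.26 CPM in the double knockout, 3.496, 2.81 and 2.56 CPM in the Gm1142 KO-labelled libraries and 2.11, 1.77 and 0.861 CPM in WT. The Gm1142 KO-labelled libraries again lay above the others, and the log2 fold change against WT was 0.89 (SE 0.55, adjusted p = 0.296 in edgeR). Its neighbour Snord32a had a log2 fold change of 0.05 (SE 0.42), with a sign that changed when 1 library was left out, and their shared host Rpl13a one of -0.22. Snord70, in Nop58, had a log2 fold change of 0.91 (SE 0.72) against WT, which was 0.37 without replicate 2 and 1.30 without replicate 3 of the Gm1142 KO-labelled libraries.

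In all, the 3 libraries of each group did not overlap for 1 of 19 tested members between double knockout and WT (Snord59a, higher), 4 of 19 between the Gm1142 KO-labelled libraries and WT (Snord53, Snord71, Snord35a and Snord59a, all higher) and 3 of 19 between double knockout and the Gm1142 KO-labelled libraries (Snord53, Snord71 and Snord35a, all lower). Among all tested genes 15.9%, 35.9% and 33.4% did not overlap in either direction. The members' shares lay below those of all tested genes. No such share was computed for genes at the members' level, so this is a description. Snord59a passed the filter on low counts through knockout libraries alone, and Snord71 needed the Gm1142 KO-labelled libraries to pass it. Their places in these counts are therefore descriptions. Every pair of these comparisons shares 1 group of libraries.

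At the lower end stood genes of both classes. Snord89 had 4.97, 4.96 and 8.61 CPM in the double knockout, 6.603, 7.16 and 7.67 CPM in the Gm1142 KO-labelled libraries and 6.32, 10.1 and 13.6 CPM in WT. The double knockout and WT overlapped, and the log2 fold change was -0.71 (SE 0.34, adjusted p = 0.555 in edgeR). Its host Gm15832 had one of -0.51 in that comparison (adjusted p = 0.431 in edgeR). Snora69, an H/ACA gene in Rpl39, had 2.49, 1.805 and 2.49 CPM in the double knockout, 1.36, 2.56 and 0.426 CPM in the Gm1142 KO-labelled libraries and 1.53, 2.56 and 3.88 CPM in WT. One of the Gm1142 KO-labelled libraries stood at 0.426 CPM and the groups overlapped, with log2 fold changes of -0.89 between the Gm1142 KO-labelled libraries and WT (SE 0.64) and 0.65 between double knockout and the Gm1142 KO-labelled libraries (SE 0.64). With 1 library left out these ranged from -1.53 to -0.46 and from 0.21 to 1.28. Snord8, in the chromatin remodeller gene Chd8, had a log2 fold change of -0.47 between the Gm1142 KO-labelled libraries and WT (SE 0.56).

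The 2 genes with the most counts were both H/ACA, and neither passed the test. Snora31 had 9.38, 6.66 and 15.6 CPM in the double knockout, 14.8, 15.1 and 13.8 CPM in the Gm1142 KO-labelled libraries and 13.97, 11.04 and 11.6 CPM in WT. Snora41 had 11.1, 6.204 and 11.3 CPM in the double knockout, 8.74, 14.6 and 13.00 CPM in the Gm1142 KO-labelled libraries and 9.76, 12.02 and 14.9 CPM in WT. Double knockout libraries of both genes spread widely and overlapped the other groups. Log2 fold changes between double knockout and WT were -0.25 (SE 0.29) for Snora31 and -0.38 (SE 0.30) for Snora41, and 0.0122 for Snora31 without double knockout replicate 2. Against the Gm1142 KO-labelled libraries Snora31 had -0.50 (SE 0.29, adjusted p = 0.241 in edgeR), and it was called there when double knockout replicate 3 was left out (-0.88, adjusted p = 0.0366), against -0.21 (adjusted p = 0.704 in edgeR) without replicate 2.

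**Figure D3:**
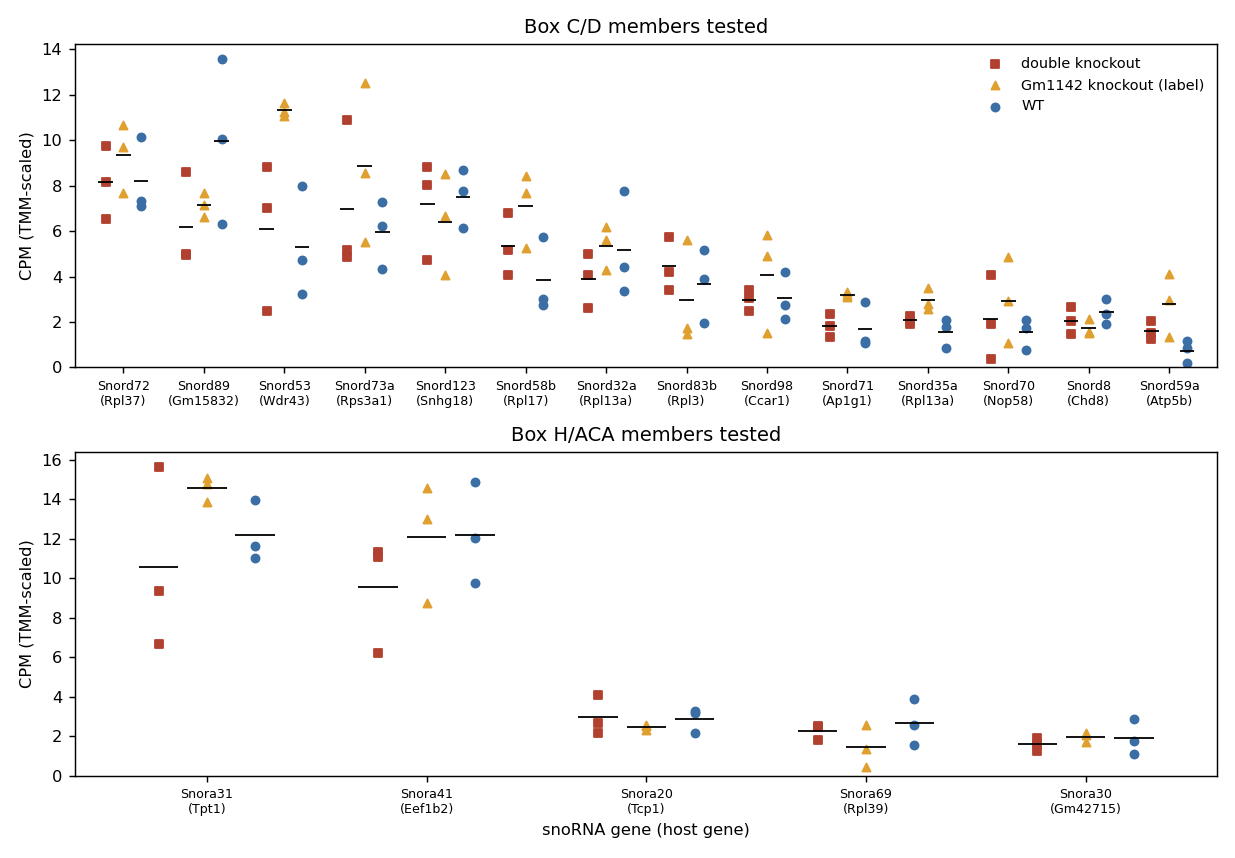
Level of each tested gene in CPM on scaled library sizes (vertical axis) in every library, with its host in brackets (horizontal axis); bars are means of 3 libraries. Snord53 is at 11.7, 11.2 and 11.1 CPM in the Gm1142 KO-labelled libraries, above each library of the other groups.

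By class, the median log2 fold change of the tested C/D members was 0.14 between double knockout and WT, 0.50 between the Gm1142 KO-labelled libraries and WT, and -0.45 between double knockout and the Gm1142 KO-labelled libraries. For the 5 tested H/ACA members the medians were -0.25, -0.02 and -0.33. All 17251 tested genes had medians of 0.02, -0.01 and 0.03. Since the classes were not tested against each other, no difference between them is stated.

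Among the 17 genes too low to test, Snord23 was counted almost entirely in 1 group. This C/D gene, in the ribosome assembly gene Nop53, had 0, 1 and 0 counts in the double knockout, 6, 6 and 2 in the Gm1142 KO-labelled libraries and 0 in each WT library. It reached the membership threshold through that group, so its counts are a description and support nothing. Snord37 and Snord42b had a higher CPM in each of the Gm1142 KO-labelled libraries than in any WT library. Counts were 14, 6 and 8 against 0, 6 and 2 for Snord37, and 14, 9 and 4 against 4, 4 and 2 for Snord42b. The closest libraries held equal counts, so both separations rested on library sizes. The share of such genes among all genes too low to test was not computed, so these counts support nothing. The C/D gene Snord110, in Nop56, had 12 of its 22 counts in double knockout replicate 2 alone. The other low genes had 16 to 73 counts in all.

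Relative to exon length, snoRNA genes were not uniformly above or below their hosts. Per kilobase of exon, C/D members were at a median of 47.6% of the host level (8.92% to 1502%) and H/ACA members at 67.4% (10.3% to 935%), and 9 of 25 and 5 of 11 exceeded their host. The highest ratio was that of Snord123 to Snhg18, and the lowest that of Snord43 to Rpl3. Because a snoRNA gene can be shorter than a sequenced fragment, the scale per kilobase can misstate short genes. The direction and extent are not known here. Across genes, Spearman's rho between the log2 level per kilobase of member and host was 0.187 for all 36 pairs and 0.327 for the 19 tested pairs. Genes sharing a host and libraries are not independent, so these are descriptions.

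The libraries did not differ in snoRNA counts relative to host counts beyond their spread. Members had 22.7, 16.7 and 31.0 counts per 1000 host counts in the double knockout, 24.4, 32.3 and 26.0 in the Gm1142 KO-labelled libraries and 23.9, 21.1 and 27.2 in WT. On the log2 scale the mean ratio differed by -0.08 between double knockout and WT (exact permutation p = 0.9), by 0.19 between the Gm1142 KO-labelled libraries and WT (exact p = 0.4) and by -0.27 between double knockout and the Gm1142 KO-labelled libraries (exact p = 0.4). With 1 library left out these 3 differences ranged from -0.30 to 0.15, from 0.07 to 0.28 and from -0.49 to -0.05, with the values nearest 0 in the last 2 without replicate 2 of the Gm1142 KO-labelled libraries and without double knockout replicate 2. For C/D members the differences were -0.0027 (exact p = 1), 0.30 (exact p = 0.2) and -0.31 (exact p = 0.4), and for H/ACA members -0.23 (exact p = 0.5), -0.03 (exact p = 0.9) and -0.20 (exact p = 0.6).

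In both comparisons with the Gm1142 KO-labelled libraries, the called share of the 31 tested hosts was near that of all tested genes. Among the 18 hosts of tested members it was 27.8% in each. Median SEs between the Gm1142 KO-labelled libraries and WT were 0.14 for the 31 hosts and 0.25 for all tested genes. No share was computed for genes at the hosts' level, so these shares are descriptions. Of 31 hosts tested, 5 (16.1%, against 18.5% of all tested genes) were called between the Gm1142 KO-labelled libraries and WT, all higher: Ccar1, Tcp1, Nop58, Gm42715 and Wdr43. Ccar1, a coactivator and cell cycle regulator, had 348 ± 33.5 CPM in the Gm1142 KO-labelled libraries and 232 ± 31.6 CPM in WT (log2 fold change 0.58, SE 0.12, adjusted p = 0.00187 in edgeR). Its snoRNA Snord98 had a log2 fold change of 0.44 (SE 0.51). Tcp1, a chaperonin subunit, had 296 ± 6.52 CPM in the Gm1142 KO-labelled libraries and 203 ± 19.3 CPM in WT (log2 fold change 0.55, SE 0.11, adjusted p = 0.00176 in edgeR), while its snoRNA Snora20 had -0.21 (SE 0.50). Nop58, a core protein of C/D particles that also hosts 2 members, had a log2 fold change of 0.43 (SE 0.12, adjusted p = 0.0123 in edgeR). Gm42715 (0.58, SE 0.19) holds Snora30, whose span also lies in Srcap, and Wdr43 (0.42, SE 0.13) holds Snord53. The calls of Ccar1 and Tcp1 held with each library left out. That of Nop58 was lost without WT replicate 1 (adjusted p = 0.0797), that of Gm42715 without replicate 2 of the Gm1142 KO-labelled libraries or without WT replicate 1 or 2, and that of Wdr43 without any 1 library other than WT replicate 2.

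Of the 31 hosts, 0 were called by edgeR between double knockout and WT, and DESeq2 called 0. At an unadjusted p under 0.05 stood 1 host, against 1544 of all 17251 tested genes. In the double knockout against the Gm1142 KO-labelled libraries, Ipo7 was called higher, and Ccar1, Gm15832, Gm42715, Nop58 and Tcp1 lower. Ipo7, an importin, had 163 ± 2.96 CPM in the double knockout and 130 ± 8.37 CPM in the Gm1142 KO-labelled libraries (log2 fold change 0.33, SE 0.11). Its adjusted p was 0.0491 in edgeR, and the call was lost when any of the 6 libraries was left out, with no filter, with the compared groups alone and under RLE scaling. The call of Nop58 was lost without double knockout replicate 2 (adjusted p = 0.0557) and without replicate 2 of both knockout groups (0.0853), with a range of 0.00228 to 0.0853 over its alternatives, while those of Ccar1, Gm15832, Gm42715 and Tcp1 were kept in each alternative. The 6 called hosts were 19.4% of 31, against 19.1% of all tested genes. Of these 6, the 5 called lower were among the 18 hosts of tested members (27.8%).

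Fold changes of snoRNA genes were compared with those of their hosts within each comparison. Over the 19 tested pairs Spearman's rho was 0.541 between double knockout and WT, 0.104 between the Gm1142 KO-labelled libraries and WT, and -0.152 between double knockout and the Gm1142 KO-labelled libraries. The signs matched in 15, 10 and 11 of 19 pairs. These comparisons share libraries, so their values stand side by side and were not compared. Hosts ranged from -0.81 to 0.58 between the Gm1142 KO-labelled libraries and WT, and members from -0.89 to 1.88, with members' standard errors several times the hosts'.

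**Figure D4:**
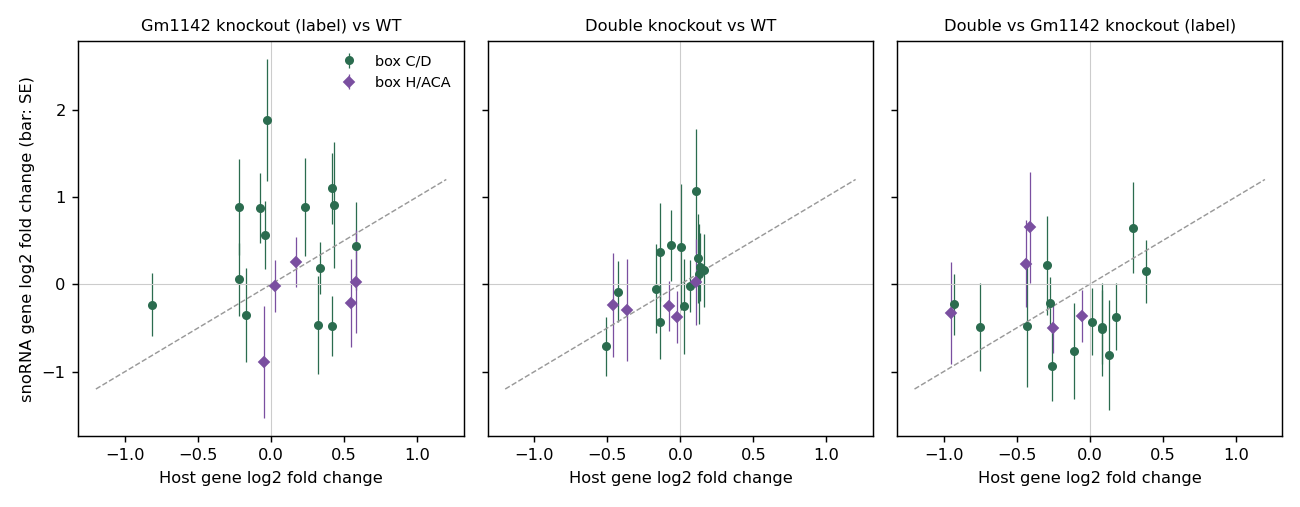
Log2 fold change of each tested snoRNA gene with its SE (vertical axis) against that of its host (horizontal axis) in 3 comparisons; the dashed line marks equal change. Snord59a, with 1.88 between the Gm1142 KO-labelled libraries and WT, lies above a host with -0.03.

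Genes that build or process snoRNA particles were read alongside. Between the Gm1142 KO-labelled libraries and WT, 2 of 12 genes of C/D particles and their assembly were called, both higher: Fbl, the fibrillarin methyltransferase, and Nop58. Fbl had 114 ± 4.66 CPM in the Gm1142 KO-labelled libraries and 74.5 ± 3.52 CPM in WT (log2 fold change 0.62, SE 0.12, adjusted p = 0.00132 in edgeR). Of 6 H/ACA genes, Nop10, a core subunit, and Naf1, an assembly factor, were called higher, with log2 fold changes of 1.19 (SE 0.37) and 0.72 (SE 0.23). Of 20 genes listed under trimming, debranching and decay, a list that also holds Ncl and Npm1, 3 were called higher. These were Tent4b (0.48, SE 0.16), C1d (0.56, SE 0.18) and Mtrex (0.38, SE 0.13), all linked to the nuclear exosome. Of these 7 calls that of Fbl held under each alternative, with adjusted p-values up to 0.0139, and the other 6 were each lost when at least 1 library was left out. Over this contrast 18.5% of all tested genes were called, against 16.7%, 33.3% and 15% of these lists. For double knockout against WT, edgeR called 0 genes of the 3 lists. At an unadjusted p under 0.05 stood 1, 0 and 2, against 1544 of all 17251 tested genes. DESeq2 called 0 of each list. The smallest p values belonged to Ruvbl1 (0.36, SE 0.17), Naf1 (0.30, SE 0.23) and Ncl (0.46, SE 0.17). Between double knockout and the Gm1142 KO-labelled libraries, Fbl (-0.48, SE 0.12), Nop58 (-0.43, SE 0.12) and Nop10 (-1.39, SE 0.37) were lower and Znhit6 (0.71, SE 0.23) and Npm1 (0.41, SE 0.13) higher. The called shares of the 3 lists were 25%, 16.7% and 5%, against 19.1% of all tested genes. Of these calls that of Fbl alone held with each library left out.

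Genes listed as non-coding hosts were called in both directions. Of 19 tested, 3 were called higher, among them Snhg14 (0.81, SE 0.14) and Snhg15 (0.63, SE 0.19), and 3 lower, Gas5 (-0.66, SE 0.13), Zfas1 (-0.79, SE 0.16) and Mirg (-0.54, SE 0.16), between the Gm1142 KO-labelled libraries and WT (31.6%, against 18.5% of all tested genes). The calls of Snhg14, Gas5 and Zfas1 held with each library left out, and those of Snhg15 and Mirg did not. For double knockout against WT edgeR called 0, and DESeq2 called 0. Of the 19, 5 had an unadjusted p under 0.05, against 1544 of all 17251 tested genes. Against the Gm1142 KO-labelled libraries, the double knockout had 2 called higher and 6 lower (42.1%, against 19.1% of all tested genes), among them Snhg14 (-1.15, SE 0.14) and Zfas1 (0.95, SE 0.16). The 0-count genes Snord47, Snord78, Snord80 and Snord12 sit in Gas5 and Zfas1, so they give no readout beside those hosts.

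Signs of nuclear or non-polyadenylated RNA were also read. The summed level of 7 nuclear-retained RNAs was 2204 to 3433 CPM in the double knockout, 3870 to 4407 CPM in the Gm1142 KO-labelled libraries and 3220 to 3554 CPM in WT. Within that list 3 of 7 were called between the Gm1142 KO-labelled libraries and WT (42.9%, against 18.5% of all tested genes). Kcnq1ot1 (0.99, SE 0.18) was higher, and Tug1 (-0.64, SE 0.11) and Mirg, also listed among the non-coding hosts, were lower. Of the 7 log2 fold changes 3 were positive and 4 negative, with a median of -0.19, so the sum does not describe each RNA. Between double knockout and WT edgeR called 0 and DESeq2 called 0. At an unadjusted p under 0.05 stood 3 of 7, against 1544 of all 17251 tested genes. Between double knockout and the Gm1142 KO-labelled libraries 1 was called higher and 3 lower (57.1%, against 19.1%). Of 8 RNAs without a poly(A) tail that the table lists, 0 were tested and 6 were at 0. The part of these levels in the snoRNA counts was not tested.

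As the class most alike, the table holds 94 other genes annotated as snoRNA, under predicted symbols, with at least 15 counts, of which 43 were tested. Between the Gm1142 KO-labelled libraries and WT 8 of them (18.6%, against 18.5% of all tested genes) were called, all higher, with 0 of 19 members called. Between double knockout and WT edgeR called 0 and DESeq2 called 0. At an unadjusted p under 0.05 stood 2 of 43, against 1544 of all 17251 tested genes. Between double knockout and the Gm1142 KO-labelled libraries 8 were called, all lower (18.6%, against 19.1%). Gm22362, in Ybx3, had 8, 4 and 10 counts in the double knockout, 24, 28 and 30 in the Gm1142 KO-labelled libraries and 5, 5 and 3 in WT (log2 fold change 2.77 between the Gm1142 KO-labelled libraries and WT, SE 0.60, adjusted p = 0.00281 in edgeR). Gm25188, in Sh3d19, had 0, 0 and 2 counts, 14, 10 and 30 counts, and 2, 2 and 6 counts in the same order. Both genes passed the filter on low counts through the Gm1142 KO-labelled libraries, where they were high. Their values, and their places among the called genes of both comparisons, are therefore descriptions and support nothing. The sum over the 94 genes was 217 ± 17.0 counts per 1000000 gene counts in the double knockout, 256 ± 20.98 in the Gm1142 KO-labelled libraries and 201 ± 7.31 in WT (SD, n = 3 each), without overlap between the Gm1142 KO-labelled libraries and WT (exact permutation p = 0.1, the smallest possible). Some of the 94 genes, Gm25188 among them, reached 15 counts only with the Gm1142 KO-labelled libraries. The place of their sum above WT is therefore a description and supports nothing. The shares of called genes in the 2 classes were not tested against each other. Of 31 tested microRNA genes 9 were called between the Gm1142 KO-labelled libraries and WT, 7 higher and 2 lower (29%).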

How the data were processed

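The authors deposited 1 table of raw read counts per gene with 1 column per library. Per the submitters' processing notes, cutadapt, Bowtie2, STAR and featureCounts were used with build mm39. Versions, strand setting, annotation release and treatment of reads with several matches are not given in the sources used here.

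Members, lists and rules were chosen with earlier results of these data known. Counts were analysed with edgeR 4.0.16 in R 4.3.3: default filter (minimum count 10, total 15), TMM scaling, a quasi-likelihood fit over all 9 libraries with a term for each group, and Benjamini-Hochberg adjustment over 17251 genes; an adjusted p under 0.05 was called. CPM used scaled library sizes. Sums and log2 ratios were compared by exact permutation over libraries. A floor of 3 counts allows for counting error alone, since PCR reads lacking molecular identifiers need not be separate molecules. Libraries had equal counts for at most 2.16% of genes with at least 20 counts in any pair.

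A host is the same-strand gene holding the whole snoRNA, by GENCODE M21 (GRCm38), matched by gene identifier for 36 of 36 members; of several hosts the most abundant was taken. Copies were sought with blastn 2.17.0 (at least 90% identity over 80% of the length). Named genes are the 10 members with the most counts, called members, the 3 highest and 3 lowest fold changes per comparison, their hosts, and called list members. Snord71, Snord35a, Snord23, Snord37, Snord42b, Snord110, Gm22362, Gm25188 and the 0-count genes named were picked with their values in view. Alternatives were RLE scaling, no filter, a stricter filter (100 counts, and 1 CPM in 3 libraries), DESeq2 1.42.0, the compared groups alone, a replicate block, mitochondrial genes removed, and each library left out. Leaving out replicate 2 of both knockout groups together was chosen after seeing the data.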

Additional observations from a re-analysis of the deposited data

How the results depend on the processing

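The count of called members was 0 in all 3 comparisons under RLE scaling, the stricter filter, DESeq2, the replicate block and removal of mitochondrial genes. Between the Gm1142 KO-labelled libraries and WT it was 1, Snord53, with no filter, with the compared groups alone and with both second knockout libraries left out, and ranged from 0 to 1 when each library was left out (1 without WT replicate 3). Between double knockout and the Gm1142 KO-labelled libraries it ranged from 0 to 1 (Snord53 without double knockout replicate 1, Snora31 without replicate 3). The replicate block gave 0 called members in each comparison, and correlations of same-numbered deviations of -0.27 to 0.10 do not pair the samples. The difference in summed member CPM (on gene counts) between double knockout and WT ranged from -8.73 to 13.8 with each library left out, that between the Gm1142 KO-labelled libraries and WT from 1.53 to 15.1, and that between double knockout and the Gm1142 KO-labelled libraries from -17.8 to 4.71, and was 7.92 with both second knockout libraries left out. The log2 ratio to hosts between double knockout and WT was 0.0169 as a median over pairs, -0.30 to 0.15 with each library left out and 0.15 with both second knockout libraries left out; between double knockout and the Gm1142 KO-labelled libraries it was 0.0735 in that last case. Without replicate 2 of both knockout groups Snora31 was 0.0231 between double knockout and WT. With each library left out, Snora31 ranged from -0.64 to 0.0122 and Snord70 from -0.34 to 0.89 between double knockout and WT, Snord32a from -0.18 to 0.46 between the Gm1142 KO-labelled libraries and WT, and Snora20 from -0.0498 to 0.459 between double knockout and the Gm1142 KO-labelled libraries. The cause of these changes was not tested. Depth limits all of this: 17 of 36 members were too low to test.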
